A study of Mus musculus with 8 samples.

Results

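Atf4 and 9 other genes of the integrated stress response were followed in mouse regulatory T cells on a bead array, the Illumina MouseRef-8 v2.0. The genes, 10 of the 16593 named on the array, were taken by name, and use was made of all 14 of its 25697 probes annotated to Atf4, Ddit3, Trib3, Asns, Chac1, Sesn2, Ddit4, Eif2ak3, Ppp1r15a or Cebpb. The list was built around Atf4, which was chosen by its lower level in this same comparison, so the values of the members are given as a description and without a p-value. The natural regulatory T cells came from C57BL/6 mice with a FoxP3-GFP reporter and were purified by a CD4+GFP+ sort. In these mice green fluorescence marks cells that express the regulatory T cell factor FoxP3. There were 4 arrays titled G-CSF, whose treatment label is G-CSF, and 4 titled Naive, whose treatment label is saline, so the Naive animals may have had saline or nothing. G-CSF is a growth factor that drives neutrophil production and moves blood stem cells out of the marrow. The labels used here state no dose, duration, age or sex. They also do not say whether each array had its own mouse and its own sort, so p-values measure only the spread between these arrays, which may be technical.

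The integrated stress response is a shared pathway in which kinases that sense unfolded protein, amino acid shortage, haem shortage or viral RNA phosphorylate the translation initiation factor eIF2. General protein synthesis then slows, while the mRNA of the transcription factor ATF4 is translated more, through small open reading frames ahead of its coding sequence. ATF4 switches on genes of amino acid supply, redox balance and, with CHOP, cell death. ATF4 activity is set largely at translation, which an array of RNA does not measure.

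Every direction below rests on the titles of the intensity columns. A brighter probe must have a lower or equal detection p-value on its array. Against the p-values next to it, every intensity column broke this order at 12.8% to 23.5% of its steps (tolerance 0.0001). All 8 columns kept the order without a break against the p-values placed with the other group's array of equal replicate number. Intensities or p-values thus stand under the other group's titles, and every higher and lower turns round if it is the intensities. Detected probes numbered 9969 to 10519 on G-CSF arrays and 9588 to 10402 on Naive arrays. The median deposited intensity was 125.4 to 180.8 on G-CSF arrays, with replicates 3 and 4 the brightest of all 8, and 117.8 to 124.7 on Naive arrays. All 7 regulatory T cell markers examined (Foxp3, Il2ra, Ctla4, Ikzf2, Tnfrsf18, Cd4 and Cd3e) were above background. So were some markers of other cells, namely 3 of 5 monocyte and macrophage genes (Lyz2, C1qa and Adgre1), 3 of 5 class II and dendritic cell genes, 2 of 6 CD8 T and NK cell genes (Cd8b1 and Nkg7), 1 of 4 B cell genes (Cd79b), 1 of 2 erythroid genes (Hba-a1) and 0 of 6 neutrophil and precursor genes.

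Of the 14 probes, 8 were above background, meaning detected at p under 0.01 on 4 or more of the 8 arrays. They covered 7 genes, and each was detected on all 8 arrays. Trib3, Chac1 and Sesn2 had no such probe. Values below are log2 intensities after background correction and quantile normalisation, and a change is the G-CSF mean minus the Naive mean with its standard error from limma (n = 4 per group).

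Atf4, the transcription factor at the centre of the pathway, was lower on every G-CSF array than on any Naive array. Its log2 intensity was 10.30, 10.17, 10.42 and 10.003 on G-CSF replicates 1 to 4, against 11.92, 11.02, 11.68 and 11.64 on Naive replicates 1 to 4. The groups did not overlap, and the gap lay between G-CSF replicate 3 and Naive replicate 2. The means were 10.22 ± 0.18 in G-CSF and 11.56 ± 0.38 in Naive (SD, n = 4 each), a change of -1.34 ± 0.20 (SE) or 0.395-fold. In the deposited intensities, before any scaling, the probe read 1211, 1123, 2699 and 1438 on G-CSF arrays and 3496, 1698, 2339 and 2621 on Naive arrays. The G-CSF reading of 2699, on the brightest array, was above all Naive readings but that of replicate 1. The unscaled readings on G-CSF replicates 1, 2 and 4 were below all 4 Naive readings. The part of array brightness in these unscaled readings was not tested.

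**Figure D1:**
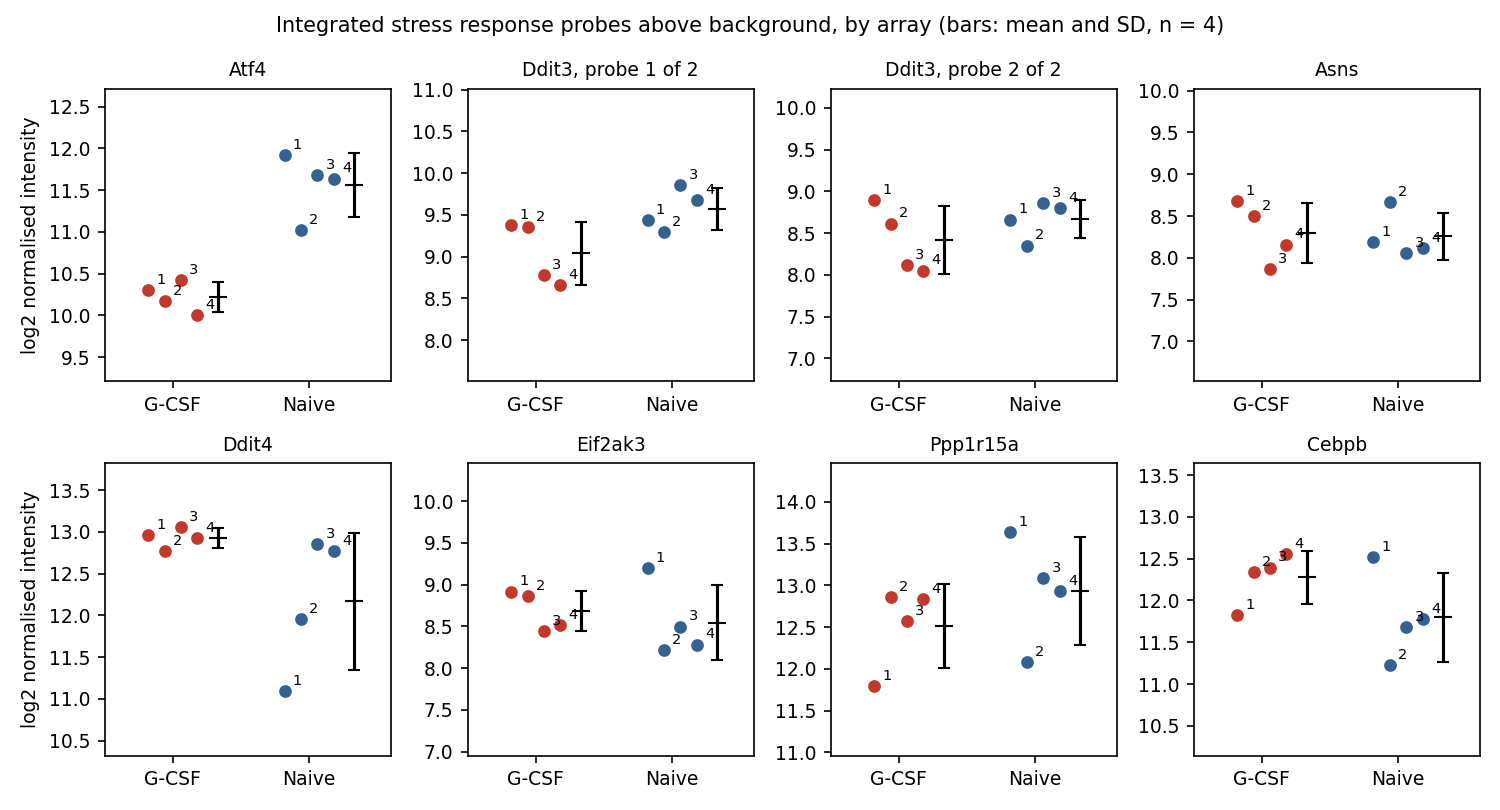
Log2 normalised intensity (vertical axes, each spanning an equal range) of the 8 probes above background, with a point per array numbered by replicate and a bar for the mean and SD of 4 arrays. Atf4 is the one panel without overlap, with G-CSF arrays from 10.003 to 10.42 and Naive arrays from 11.02 to 11.92.

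Among the 8 probes, Atf4 was the 1 that passed an adjusted p under 0.05 over all 10205 probes tested. In that fit 2.2% of probes passed, 1.24% lower and 0.951% higher in G-CSF, and 6.85% had groups that did not overlap with G-CSF lower. Since this comparison chose Atf4, nothing is read from its passing. Its change stood 15th from the lowest of all probes tested, of which 81 were lower by at least 1 on the log2 scale. The passing depended on single arrays, for it was lost without G-CSF replicate 2, 3 or 4 or Naive replicate 3 or 4, while the change itself lay between -1.52 and -1.22 with any 1 array left out. With the 2 brightest arrays left out the change was -1.33 ± 0.24 and did not pass. In these bulk samples, fewer cells that express a gene and less of its RNA per cell cannot be told apart.

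Some transcripts of other cells also varied between the arrays. Class II and dendritic cell genes, of which 3 of 5 (H2-Ab1, H2-Aa and H2-Eb1) were above background and the defining markers Itgax and Flt3 were not, had a summed normalised intensity of 697 to 1144 on G-CSF arrays and 933 to 5619 on Naive arrays. Naive replicate 1, the array with the highest Atf4, had the highest class II sum, followed by Naive replicate 2 at 2420. The 6 neutrophil and precursor genes, none of them kept, summed to 181 to 403 on G-CSF arrays and 180 to 1288 on Naive arrays. Naive replicates 1 and 3, the arrays with the highest Atf4, had sums of 1288 and 1153, and Naive replicates 2 and 4 had 180 and 225. S100a8 was detected on 1 G-CSF array and 2 Naive arrays, and S100a9 on 0 G-CSF arrays and 2 Naive arrays. Without Naive replicate 1 the change of Atf4 was -1.22 ± 0.19, and without Naive replicate 2, the array with the lowest Atf4 of its group, it was -1.52 ± 0.16. The CD8 T and NK cell genes summed to 2994 to 4540 on G-CSF arrays and 4196 to 5208 on Naive arrays, with Cd8a, Ncr1, Klrd1 and Gzma not kept. The monocyte and macrophage genes summed to 1165 to 1976 on G-CSF arrays and 718 to 1666 on Naive arrays, with Cd14 and Itgam not kept. The B cell sum was 987 to 1209 on G-CSF arrays and 1018 to 1234 on Naive arrays, and the erythroid sum 488 to 1323 on G-CSF arrays and 310 to 731 on Naive arrays. None of the kept genes of these 4 lists passed the test. The 7 regulatory T cell markers summed to 53836 to 61367 on G-CSF arrays and 58739 to 74494 on Naive arrays. Their highest sum was on Naive replicate 1. Of their changes 3 were positive and 4 negative, and 0 passed. Picked after its value was seen, Ctla4 had -0.57 ± 0.18 (limma adjusted p = 0.0951) with groups that did not overlap. The part of these transcripts in the result was not tested.

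The 250 bases before the annotated start of Atf4 are shown because this is the transcript that differed. The sequence is from RefSeq (GRCm38.p6), on the plus strand at chr15:80254934-80255183, with capitals marking the CCAAT box, a common promoter element (letters CCAAT, searched on both strands), which occurs in 37.4% of the 32851 promoters of that table.
Atf4: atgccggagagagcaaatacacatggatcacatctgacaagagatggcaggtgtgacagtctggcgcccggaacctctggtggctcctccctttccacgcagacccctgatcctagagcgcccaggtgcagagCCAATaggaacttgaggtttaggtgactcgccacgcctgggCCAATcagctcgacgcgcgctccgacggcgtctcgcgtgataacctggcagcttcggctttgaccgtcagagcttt

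Upstream of ATF4, the kinase and the phosphatase subunit among the members did not separate the groups. Eif2ak3 encodes PERK, the kinase that phosphorylates eIF2 when unfolded protein builds up in the endoplasmic reticulum. Its log2 intensity was 8.92, 8.86, 8.44 and 8.51 on G-CSF replicates 1 to 4 and 9.19, 8.21, 8.50 and 8.28 on Naive replicates 1 to 4. The change was 0.14 ± 0.22, smaller than the Naive SD of 0.45, and Naive replicate 1 stood above all other arrays. With 1 array left out it lay between 0.03 (without Naive replicate 2) and 0.35 (without Naive replicate 1). Ppp1r15a encodes GADD34, which brings a phosphatase to eIF2 and so ends the response. It read 11.79, 12.86, 12.57 and 12.83 on G-CSF arrays and 13.63, 12.08, 13.08 and 12.93 on Naive arrays, a change of -0.42 ± 0.32 with overlapping groups. It was -0.18 without G-CSF replicate 1, -0.19 without Naive replicate 1 and -0.70 without Naive replicate 2. Naive replicates 1 and 2 were the highest and lowest of their group for both genes.

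The partner factors of ATF4 among the members had overlapping groups and did not pass the test. Ddit3 encodes CHOP, a factor induced by ATF4 that pairs with other bZIP proteins and promotes cell death under lasting stress. Its brighter probe read 9.37, 9.35, 8.78 and 8.66 on G-CSF arrays and 9.44, 9.29, 9.86 and 9.68 on Naive arrays. The second probe read 8.90, 8.61, 8.11 and 8.05 on G-CSF arrays and 8.66, 8.35, 8.86 and 8.80 on Naive arrays. The changes were -0.53 ± 0.20 and -0.25 ± 0.21, and on both probes the low G-CSF arrays were replicates 3 and 4, the 2 brightest arrays. The part of brightness in this was not tested. Without those 2 arrays the changes were -0.20 ± 0.18 and 0.09 ± 0.19, so the sign of the second probe turned. It also turned under median scaling over all probes (0.10 ± 0.18). That scaling moved the median of all probes by 0.29, and relative to that median the second probe was at -0.19.

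Cebpb encodes C/EBPbeta, a bZIP factor that can pair with ATF4 and CHOP. It had a log2 intensity of 11.83, 12.34, 12.39 and 12.56 on G-CSF arrays and 12.52, 11.23, 11.68 and 11.78 on Naive arrays. The groups overlapped through Naive replicate 1, which was above all G-CSF arrays but replicate 4, and the change was 0.48 ± 0.26. Without Naive replicate 1 the change was 0.71 ± 0.21, and without Naive replicate 2 it was 0.29 ± 0.24, so either array moved it by close to the standard error.

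Ddit4 had the largest positive change among the members. It encodes REDD1, an inhibitor of the growth kinase complex mTORC1 that is induced by ATF4, by low oxygen and by glucocorticoids. Its log2 intensity was 12.96, 12.77, 13.05 and 12.93 on G-CSF arrays and 11.09, 11.95, 12.85 and 12.77 on Naive arrays. The G-CSF arrays lay close together (SD 0.12), while Naive replicates 1 and 2 stood far below the other Naive arrays (group SD 0.82). The groups overlapped, since Naive replicate 3 stood above G-CSF replicate 2. The deposited intensities, before any scaling, did not overlap, at 6226 to 14669 on G-CSF arrays and 1981 to 5791 on Naive arrays. The part of array brightness in this was not tested. The change was 0.76 ± 0.33. With 1 array left out it lay between 0.40 ± 0.22 (without Naive replicate 1) and 0.99 ± 0.32 (without Naive replicate 3).

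**Figure D2:**
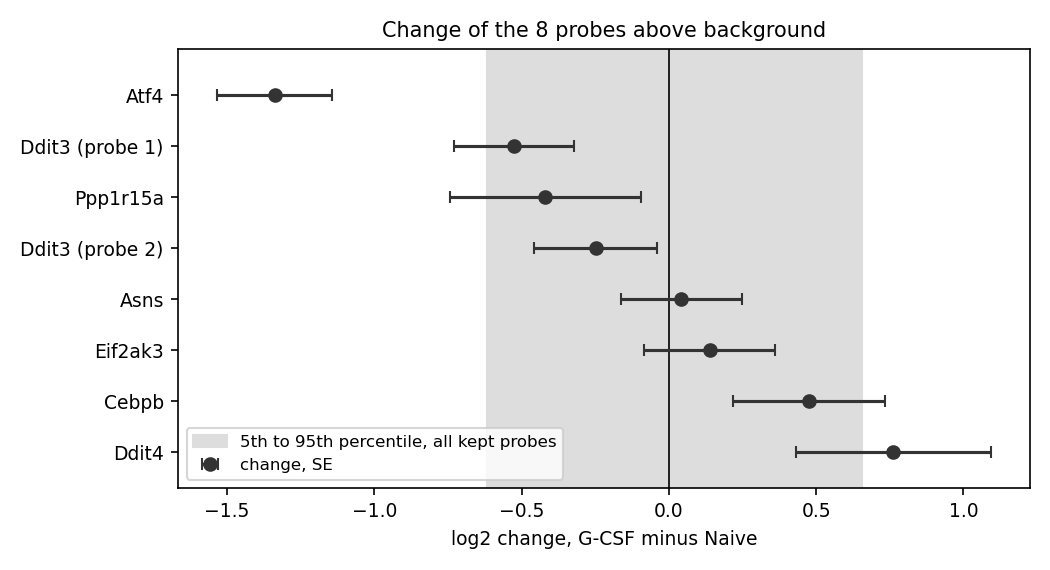
Log2 change, G-CSF minus Naive (horizontal axis), of the 8 probes above background, with bars for the standard error and a grey band from the 5th to the 95th percentile of all 10205 probes tested (-0.62 to 0.66). Atf4 at -1.34 lies left of the band, Ddit4 at 0.76 lies right of it, and the other 6 probes lie inside.

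Asns, the asparagine synthetase gene and a classical ATF4 target, had near equal normalised means in the groups. Its deposited intensities, before any scaling, did not overlap, at 400.3 to 586 on G-CSF arrays and 262 to 382 on Naive arrays. The part of array brightness in this was not tested. Its brightest probe read 8.68, 8.50, 7.86 and 8.16 on G-CSF arrays and 8.19, 8.67, 8.06 and 8.11 on Naive arrays, a change of 0.04 ± 0.21 with full overlap. Its sign turned without G-CSF replicate 1 (-0.08) or 2 (-0.03) and without Naive replicate 3 (-0.02) or 4 (-0.006). The change was 0.33 ± 0.20 without the 2 brightest arrays and 0.38 ± 0.18 under median scaling over all probes, and did not pass in either. Relative to the median of all probes under that scaling, it was 0.10. A second Asns probe was detected on 2 of 4 G-CSF arrays (replicates 3 and 4) and 0 of 4 Naive arrays, and the third was detected on none. Probes of 3 further target genes were not well above background on any array. These were Trib3, whose pseudokinase restrains AKT and ATF4 itself, Chac1, whose enzyme breaks down glutathione, and Sesn2, whose product damps mTORC1 when leucine is scarce. Their deposited intensities ranged from 94.3 to 235.7, and the 4 probes of the 3 genes had detection p-values of 0.01003 to 0.84461. At this signal a difference in Trib3, Chac1 or Sesn2 was not detectable.

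Asns, Chac1 and Trib3 were the 3 of 10 member promoters (250 bases before to 50 after the start) that held the core of the C/EBP-ATF response element, the composite site that ATF4 binds with C/EBP partners. The letters searched were TGATGNAA on both strands, and 3.97% of all 32851 promoters of the RefSeq table held them. Ppp1r15a was the 1 member with the cyclic AMP response element (letters TGACGTCA, its own reverse complement, 1.79% of all promoters). The stretches before the start of Asns, Chac1 and Ppp1r15a are shown with these letters in capitals, since they carry the sites named; the Asns stretch is the minus strand of chr6:7693210-7693269, the Chac1 stretch the plus strand of chr2:119351023-119351082 and the Ppp1r15a stretch the minus strand of chr7:45526269-45526328, all in GRCm38.p6.
Asns: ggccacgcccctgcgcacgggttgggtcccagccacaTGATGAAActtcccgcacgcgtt
Chac1: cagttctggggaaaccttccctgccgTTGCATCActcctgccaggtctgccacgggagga
Ppp1r15a: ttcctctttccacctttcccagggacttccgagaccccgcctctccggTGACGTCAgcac
A match is only a run of letters. Over the whole array, the 215 kept probes of genes with the core had a median change of -0.0039, against -0.0004 for 7728 kept probes of genes without it. Among the genes of the pathway lists below, the 7 with the core had a median change of 0.15 and the 49 without it -0.06. Both comparisons leave out genes whose symbol was not in the RefSeq promoter table, so they do not cover all 67 list genes above background.

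Taken over the brightest probe of each of the 7 measured members, 4 changes were positive and 3 negative, with a median of 0.04, against -0.01 over all probes tested. Genes of the same pathway other than the members were followed in 7 lists. Of 116 genes listed, 102 were on the array and 67 above background. In the fit over all probes limma called 1 of the 67 higher (Sesn1) and 1 lower (Dnajb9), 2 genes against the 2.2% of all probes given above. An unadjusted p under 0.05 was reached by 19 of the 67, and by 24.9% of all probes tested, the share against which the counts of each list below are to be read. The groups did not overlap for 7 of the 67 with G-CSF lower and for 7 with G-CSF higher, against 6.85% and 6.78% of all probes. Their median change was -0.05, with 30 positive and 37 negative.

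Dnajb9 encodes ERdj4, a co-chaperone of the endoplasmic reticulum induced through IRE1 and XBP1. It fell to 10.74, 11.39, 11.24 and 11.38 on G-CSF replicates 1 to 4, against 12.32, 11.88, 11.99 and 11.92 on Naive replicates 1 to 4. The groups did not overlap, and the change was -0.84 ± 0.18 (SE; limma adjusted p = 0.0471). Over the 20 alternative processings, Dnajb9 was negative in all 20 and passed in 10, with an adjusted p of 0.00366 to 0.246. The call held without G-CSF replicate 1 or Naive replicate 1 and ended without any 1 of the other 6 arrays, and median scaling over all probes also ended it (-0.57). It did not pass without the 2 brightest arrays, where the change was -0.96 ± 0.22.

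Sesn1 encodes sestrin 1, a relative of Sesn2 that is induced by p53 and FoxO factors and damps mTORC1. It rose to 12.76, 12.98, 13.27 and 12.93 on G-CSF arrays, against 12.30, 12.03, 12.32 and 12.26 on Naive arrays. The groups did not overlap, and the change was 0.76 ± 0.15 (SE; limma adjusted p = 0.0471). A dimmer Sesn1 probe went the other way (-0.43) and did not pass. Over the 20 alternatives the brighter probe was positive in all 20 and passed in 11, with an adjusted p of 0.00239 to 0.246. With 1 array left out it passed in 2 of 8 cases, those without G-CSF replicate 1 or Naive replicate 1, and it did not pass without the 2 brightest arrays (0.65 ± 0.15).

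**Figure D3:**
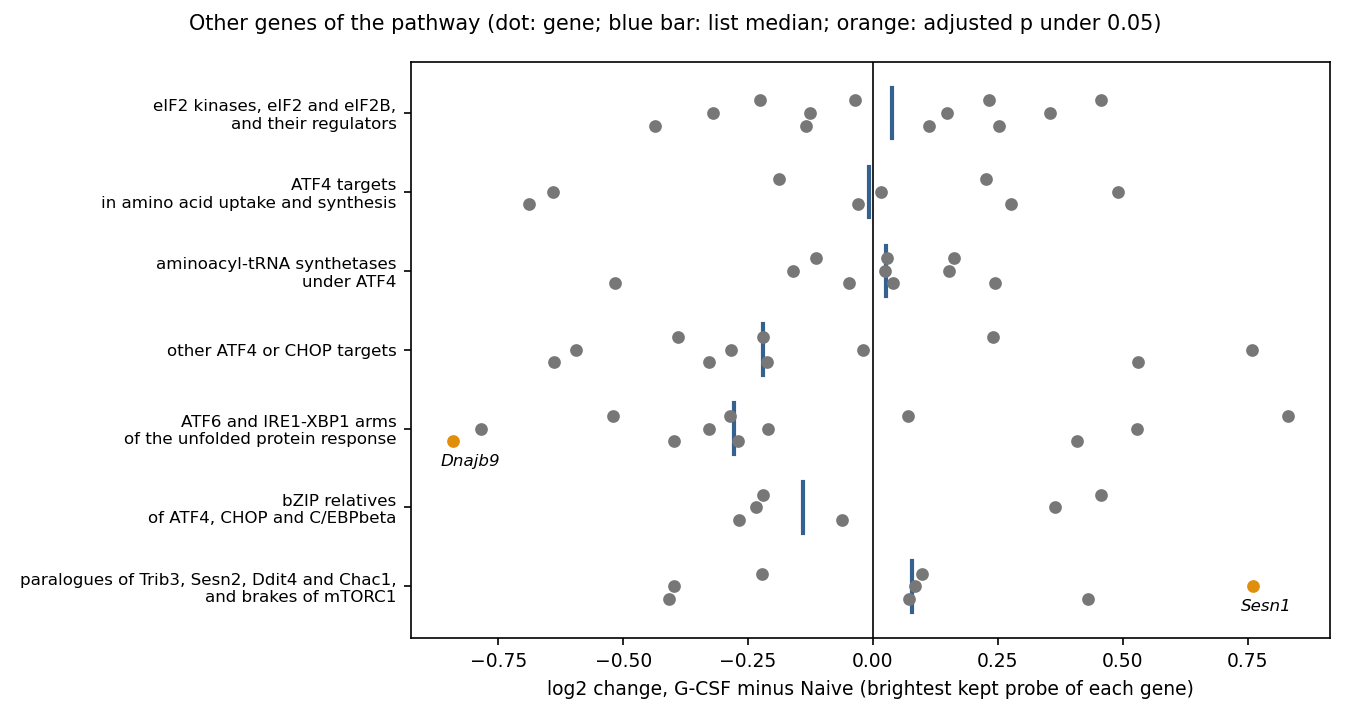
Log2 change, G-CSF minus Naive (horizontal axis), of the 67 pathway genes above background in 7 lists (rows), with a dot per gene, a blue bar for the list median and orange for an adjusted p under 0.05. The 2 orange genes are Dnajb9 at -0.84 and Sesn1 at 0.76, and the list medians lie between -0.28 and 0.08.

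In the ATF6 and IRE1-XBP1 arms of the unfolded protein response, which are switched on beside PERK, 12 of 15 genes on the array were above background. Dnajb9 alone was called, 5 genes had an unadjusted p under 0.05, 8 changes were negative and 4 positive, and the list median was -0.28. Chosen after their values were seen, the other 4 genes with an unadjusted p under 0.05 had opposite signs. Edem1, which helps clear misfolded glycoproteins, had -0.78 ± 0.20 (limma adjusted p = 0.0616) and the disulfide isomerase gene Pdia4 -0.52 ± 0.18 (adjusted p = 0.12). The chaperone gene Hsp90b1 had 0.83 ± 0.27 (adjusted p = 0.102) and the disulfide isomerase gene Pdia6 0.53 ± 0.23 (adjusted p = 0.193).

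Genes around eIF2 numbered 12 above background of 13 on the array. Limma called 0 of them (3 with an unadjusted p under 0.05), and the median change was 0.04. Eif2ak1, the gene of the haem-sensing kinase HRI, had 10.41 in G-CSF and 10.06 in Naive, a change of 0.35 ± 0.12 (limma adjusted p = 0.115) with groups that did not overlap. Ppp1r15b, which encodes the constitutive partner of the eIF2 phosphatase, had -0.44 ± 0.17 (adjusted p = 0.144). Eif2ak4, the gene of the amino acid sensor GCN2, was not well above background.

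Of the ATF4 targets in amino acid uptake and synthesis, 8 of 18 on the array were above background, and limma called 0 (3 with an unadjusted p under 0.05), with a median change of -0.01. The groups did not overlap for the lowest 2, Phgdh and Slc3a2, nor, with G-CSF higher, for Mthfd2 (0.28), an enzyme of mitochondrial folate metabolism named after its value was seen. Phgdh, the first enzyme of serine synthesis, read 9.17, 8.32, 9.18 and 8.58 on G-CSF arrays and 9.28, 9.40, 9.60 and 9.72 on Naive arrays, a change of -0.69 ± 0.21 (limma adjusted p = 0.0897). Slc3a2, the heavy chain of several amino acid transporters, had -0.64 ± 0.19 (adjusted p = 0.0805). The changes of the list reached 0.49 at the upper end. Among 10 aminoacyl-tRNA synthetase genes above background, which load amino acids onto tRNA and of which many respond to ATF4, limma called 0 and 0 had an unadjusted p under 0.05. Their median was 0.03, with Mars1 at -0.52 ± 0.25 (adjusted p = 0.23) and Nars at 0.24 ± 0.14 (adjusted p = 0.295). A dimmer Mars1 probe had -0.004, and without the 2 brightest arrays the brighter one had -0.03.

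Other ATF4 or CHOP targets numbered 11 above background of 18 on the array. Limma called 0 (2 with an unadjusted p under 0.05), 8 changes were negative and 3 positive, and the median was -0.22. Gadd45a, a stress gene of growth arrest, had 10.12 in G-CSF and 10.76 in Naive, a change of -0.64 ± 0.16 (limma adjusted p = 0.0628) with no overlap on this probe and 0.01 on a dimmer one. Jdp2, a bZIP factor of the AP-1 family, had 0.76 ± 0.21 (adjusted p = 0.0759). Of the bZIP relatives 6 of 14 were above background, limma called 0 (2 with an unadjusted p under 0.05), and the median was -0.14. Creb3l2, a bZIP factor held in the endoplasmic reticulum membrane, had 0.46 ± 0.15 (adjusted p = 0.107), and Atf2 had 0.36 ± 0.14 (adjusted p = 0.152) and -0.37 on a dimmer probe. Among 8 measured paralogues and brakes of mTORC1 of 12 on the array, Sesn1 alone was called, 4 genes had an unadjusted p under 0.05, and the median was 0.08.

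**Figure D4:**
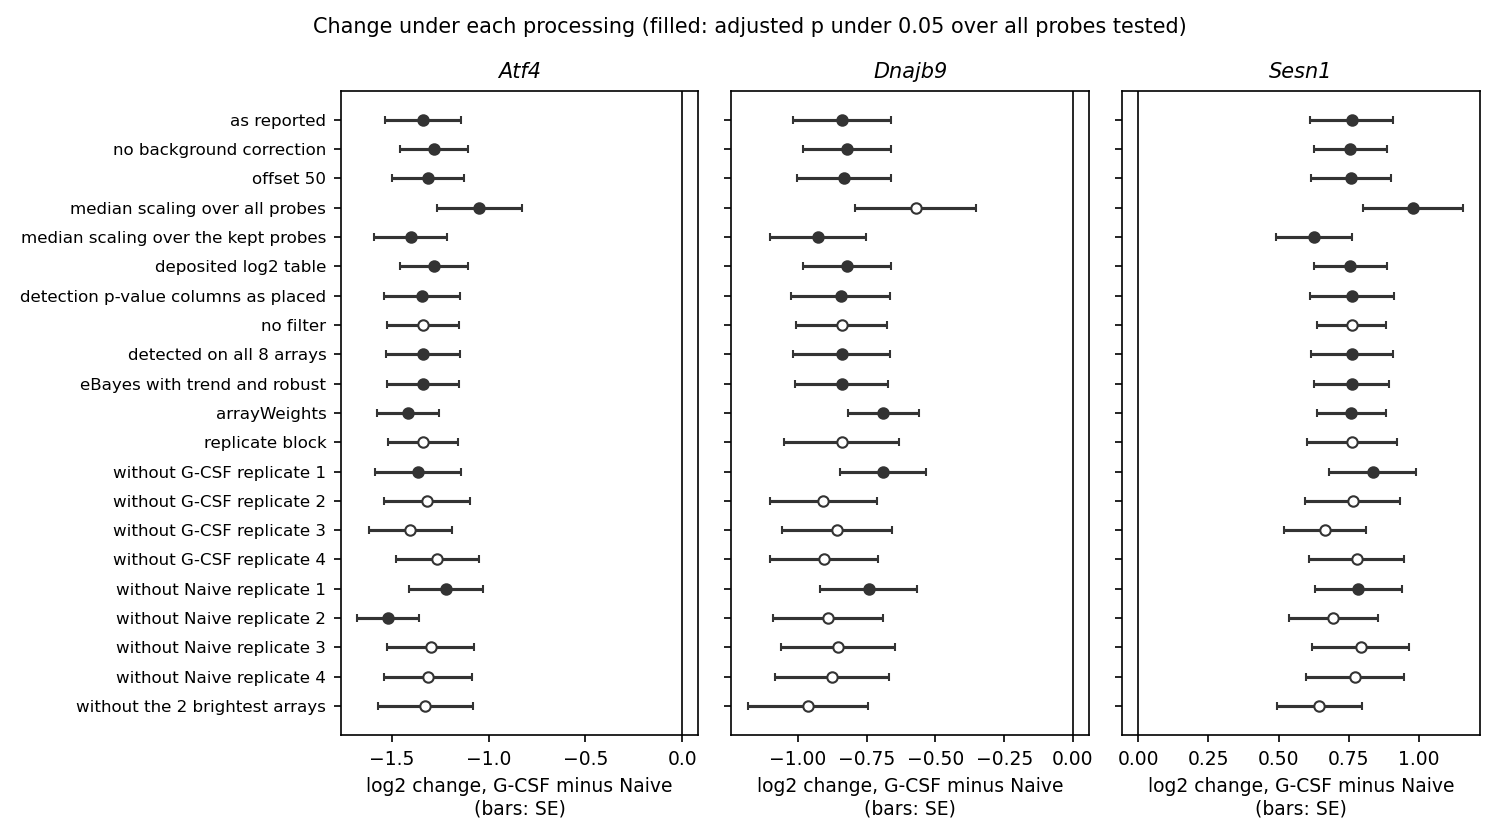
Log2 change, G-CSF minus Naive (horizontal axes, bars for the standard error), of Atf4, Dnajb9 and Sesn1 as reported and under 20 other processings (rows), with filled points for an adjusted p under 0.05 over all probes tested. Every point keeps its sign, with Atf4 between -1.52 and -1.05, while the filling changes with single arrays left out.

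The genes whose level most resembled that of Atf4 over the 8 arrays were found among 7102 genes by Pearson's r, as a description. The highest were Coq10b (0.97), which supports coenzyme Q function, the RNA helicase gene Ddx5 (0.96), the kinase gene Sik1 (0.95), the zinc finger factor Klf6 (0.95), the splicing factor Srsf5 (0.94) and the cytokine gene Il10 (0.94). All 6 had negative changes, from -1.71 for Sik1 to -0.76 for Klf6, so the likeness holds much of the difference between the groups. Sik1 was near the background on G-CSF arrays, at 5.67, 6.52, 6.34 and 5.64 on replicates 1 to 4. The part of the background in its change was not tested. The lowest were Nde1 (-0.98), Rab2a (-0.98), B4galnt4 (-0.97), Cxcr5 (-0.97), Rad52 (-0.97) and Dus4l (-0.96), with changes of 0.19 to 1.24.

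**Figure D5:**
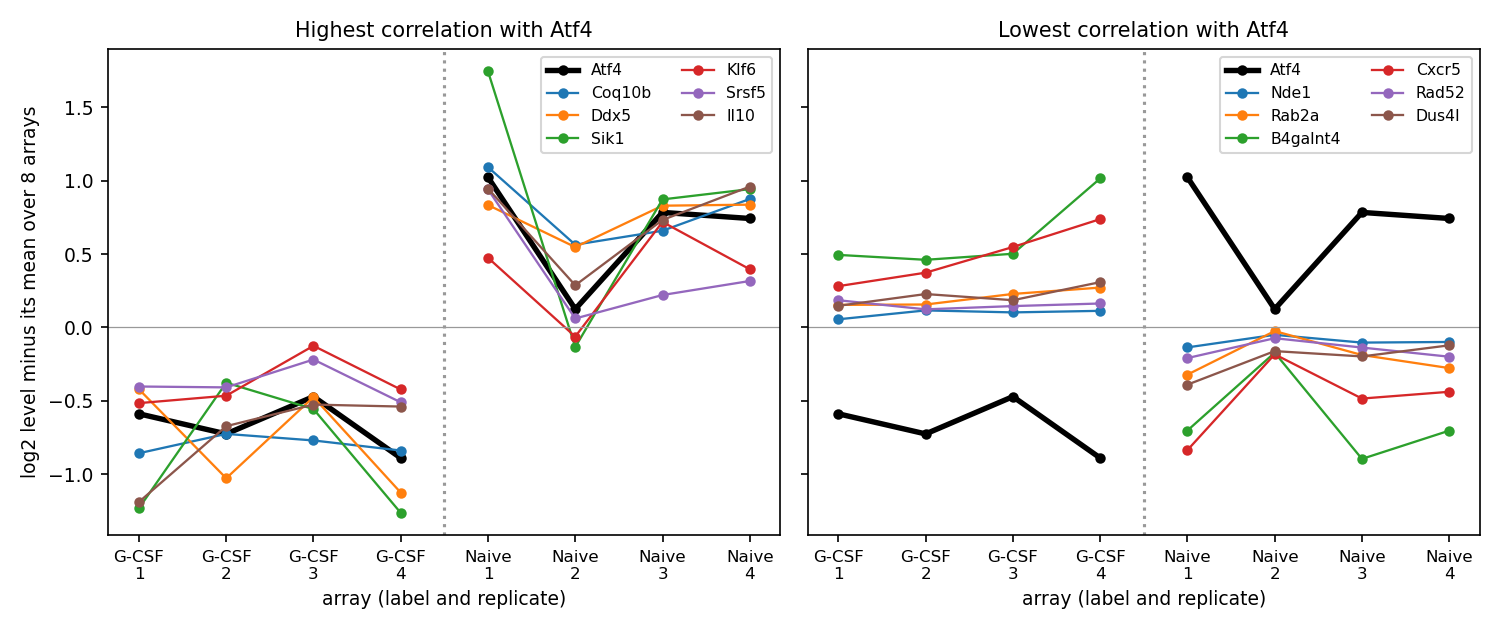
Log2 level minus its mean over the 8 arrays (vertical axis) on each array (horizontal axis) for Atf4 in black and for the 6 genes with the highest (left) and the 6 with the lowest (right) Pearson's r with it; lines only join the points of a probe. Of the Naive arrays, replicate 2 is the lowest for Atf4 and for each of the 6 genes on the left.

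With each group's mean taken away, so that only the spread within groups counted, other genes came closest to Atf4. The highest were Baz1a (0.96), Tmem131 (0.96), Tasor2 (0.96), Trim56 (0.94), Map4k4 (0.94) and Foxk1 (0.93), and the lowest were C8b (-0.98), Bloc1s4 (-0.96), Znrd1as (-0.95), Ndufv2 (-0.95), H2bc18 (-0.95) and Cdkn2aipnl (-0.94). None of these 12 genes was called in the fit, and none is among the 12 found from the levels.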

How the data were processed

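The authors deposited intensities that were not normalised and, for each of them, a detection p-value, per the file headers. Per the submitters' processing notes the software was GenomeStudio (no version stated). A second deposited table holds log2 values; recomputation showed log2 of the intensities, quantile normalised and centred on each probe's median (SD of the differences at most 0.000111), with array medians of -0.00488 to 0.00568. P-values were used with the intensities they rank with; this rests on the values and sets no sample's group. The background was taken off by normexp, its parameters inferred from detection p-values, and quantile normalisation and log2 followed (neqc, offset 16, limma 3.58.1, R 4.3.3). Probes with a detection p under 0.01 on at least 4 of 8 arrays were kept (10205), and limma's lmFit and eBayes compared 4 with 4 arrays, with Benjamini-Hochberg adjustment over all kept probes at 0.05. The fit was tested on simulated data with noise drawn independently for each probe and array. Deviations that many probes of an array share were not simulated, so that test does not bear on how the calls depend on single arrays. In the lists a gene stands for its brightest kept probe. From each list the text names up to 4 called genes, or else the 2 with the smallest p; Edem1, Pdia4, Hsp90b1, Pdia6 and Mthfd2 were added after their values were seen. Gene names came from the platform annotation (23978 of 25697 probes). Promoters of all 10 members were matched in the RefSeq table by symbol. The members and lists were chosen with earlier results of these data known. Precision is limited by the number of arrays.

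Alternatives were other background corrections, scalings, filters, variance models and array weights, the deposited log2 table, the p-value columns as placed, a replicate block, and leaving out each array or the 2 brightest. Median scaling over the kept probes was added after seeing the data. The labels give both groups the same replicate numbers, without saying what a number shares. Same-numbered arrays deviated from their group means with correlations of -0.12, -0.02, 0.18 and 0.08, so the numbers were not taken as pairs.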

Additional observations from a re-analysis of the deposited data

Results flagged for a closer look

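Among the named probes above background, 2 of 40 groups of 4 arrays held an array far from the other 3, and chance gives about 1 in 20. For Eif2ak1, the haem-sensing kinase gene, Naive replicate 2 had a log2 intensity of 10.12, with the others at 10.03 to 10.04. For the amino acid transporter gene Slc3a2, Naive replicate 1 had 7.88, with the others at 7.46 to 7.52. Both stand apart from a group whose other arrays lay close together, and both lie on the Naive side. The cause was not tested.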

How the results depend on the processing

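The change of Atf4 stayed negative under all 20 alternatives, and its moves from the reported value were within the spread between arrays. It ran from -1.52 without Naive replicate 2 to -1.05 under median scaling over all probes. That scaling moved the median of all probes by 0.29, and the change of Atf4 relative to that median was -1.33. Counts of calls moved far more than sizes. Over all probes the count was 224 (97 higher and 127 lower in G-CSF). It was 856 (810 and 46) under median scaling over all probes, 287 (77 and 210) under median scaling over the kept probes, 4 with no filter, 3776 with array weights, 4 with the replicate block and 0 without the 2 brightest arrays (1439 at an unadjusted p under 0.05). With 1 array left out it ranged from 1 to 1089. The count of member probes called, 1 as reported, was 0 with no filter, 0 with the replicate block, 0 without the 2 brightest arrays, 4 with array weights (Atf4, Cebpb and both Ddit3 probes) and 0 to 1 with 1 array left out. The count of pathway genes called, 2 as reported, was 7 (all higher) under median scaling over all probes, 0 with no filter (20 at an unadjusted p under 0.05), 32 with array weights, 0 with the replicate block (19), 0 without the 2 brightest arrays (8) and 0 to 6 with 1 array left out. Replicate numbers were not shown to pair the arrays, so these block counts say nothing of a weaker effect. Among the other members, the Asns probe (0.38) and the brighter Ddit3 probe (-0.17) moved by more than the spread between arrays under median scaling over all probes. Relative to the moved median they were at 0.10 and -0.46, against 0.05 and -0.52 as reported. The second Ddit3 probe changed sign under that scaling (0.10), but relative to the median it was at -0.19, against -0.24 as reported. Without the 2 brightest arrays the brighter Ddit3 probe also moved by more than the spread (-0.20), and the second probe changed sign (0.09). Probes of Trib3, Chac1 and Sesn2 lay too near the background to show a difference. The causes were not tested.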
